A study of Mus musculus with 5 samples.

Results

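The fatty acid desaturases and elongases described here are 9 genes of the Scd, Fads and Elovl families, taken by gene symbol from a liver RNA-seq table of 33589 rows. All 9 had 1 row each, and all 9 reached the mean of 1 FPKM (fragments per kilobase of transcript, scaled to the fragments of the library) that was required for testing and that 10820 rows reached. The study holds 5 liver libraries of male mice aged 6 weeks that were given a high-fat diet for 4 weeks. In 3 knockout livers, floxed Heg (labelled Hegfl/fl) was combined with Lyve1-Cre. In 2 control livers the same floxed gene was present without Cre, so both groups share the floxed alleles and the diet. Lyve1-Cre is active in lymphatic and liver sinusoidal endothelial cells, whereas the enzymes described here act in liver mostly in hepatocytes. The design asks how the liver on this diet differs when HEG1, a receptor of endothelial cells, is deleted in Lyve1-expressing cells. The labels do not say that each library came from a separate animal, and p-values therefore measure the spread between these libraries, which may be technical.

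Desaturases place double bonds in acyl chains, and elongases lengthen the chains, both in the endoplasmic reticulum. ELOVL6 and SCD1 turn palmitate made in the liver into oleate, the main monounsaturated fatty acid of hepatic triglyceride. FADS2, ELOVL5, FADS1 and ELOVL2 act on the essential fatty acids of the diet and give arachidonic acid and docosahexaenoic acid, while ELOVL1 and ELOVL3 make very long saturated and monounsaturated chains. In liver several of these genes are known targets of SREBP-1c and of the nuclear receptors LXR and PPARα.

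All 9 genes had a higher mean in knockout livers than in control livers, by ratios of mean FPKM between 1.28 for Elovl1 and 2.28 for Scd1. None of them passed once p-values were adjusted over the whole table. With limma on log2(FPKM + 1) and Benjamini-Hochberg adjustment over 10820 genes, the adjusted p of the 9 genes lay between 0.689 and 0.776, and 0 of all genes passed (0%). At an unadjusted limma p below 0.05 there were 5 members, Fads1, Fads2, Elovl1, Elovl5 and Elovl2, all higher in knockouts, where 5.29% of all genes tested were higher at that level. This count was 1 without control 1, 4 or 5 without any other single library, 3 with no filter on low values and 7 with the replicate number as a block. It was 4 with median-of-ratios scaling and 4 with quantile normalization. Over all genes tested the count at that level, in either direction, was 757 in the main fit and 966 with the block. For 6 members every knockout library lay above both control libraries, which held for 18.9% of all genes tested. With median-of-ratios scaling or quantile normalization it held for 5 members. The median log2 fold change (knockout minus control, here and below on the log2(FPKM + 1) scale) was 0.62 over the members and 0.06 over all genes tested, of which 64.2% were higher in knockouts.

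**Figure D1:**
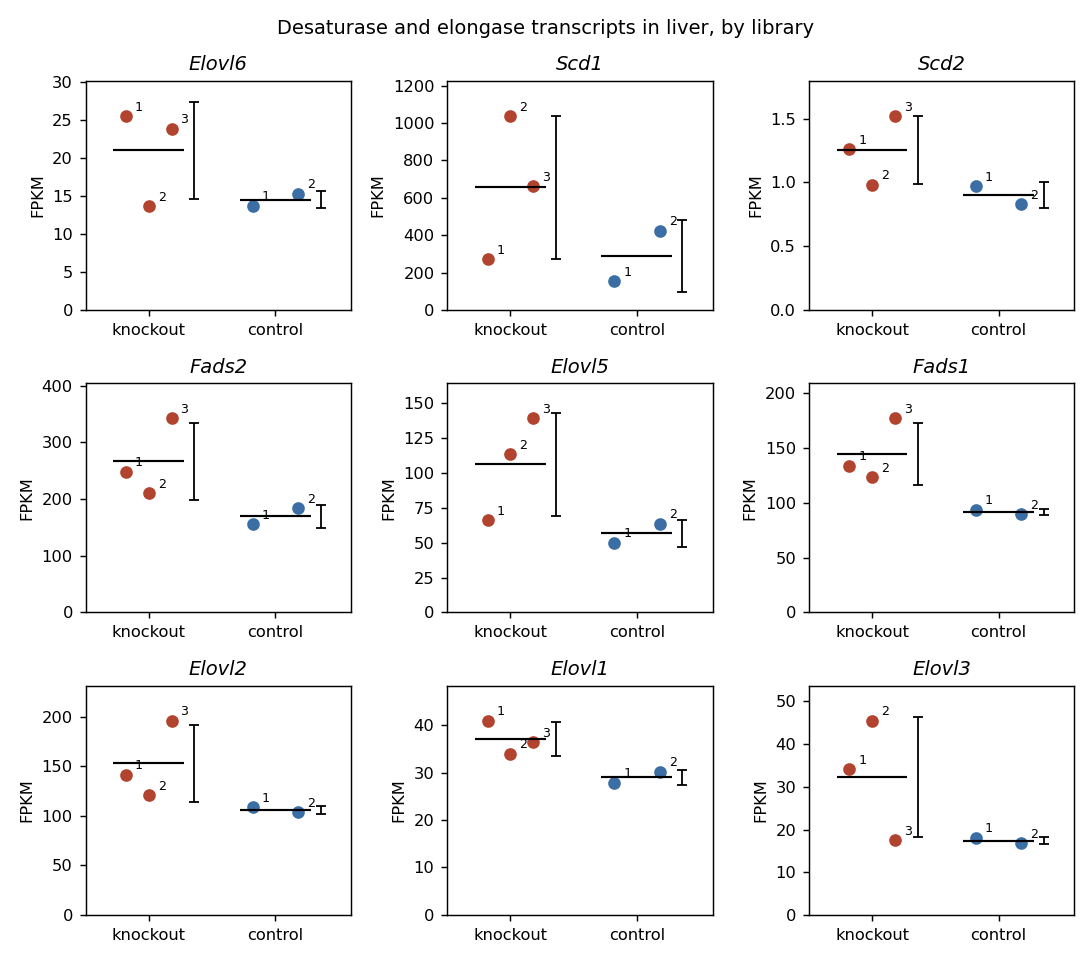
FPKM of the 9 genes in each of the 3 knockout libraries and 2 control libraries, with library numbers beside the points, the group mean as a line and the SD as a bar at its right. The groups are apart for Fads1, Fads2, Elovl1, Elovl2, Elovl5 and, by 0.01 FPKM, Scd2, and they overlap for Scd1, Elovl3 and Elovl6.

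A few facts of the whole series bear on these values. FPKM carry no totals, so the depth of the libraries is unknown. Heg1 itself had 0.45, 0.43 and 0.50 FPKM in knockouts and 0.48 and 0.35 FPKM in controls, so the labels could not be checked by it in whole liver, and Lyve1 had 3.90, 7.32 and 10.5 FPKM in knockouts and 7.34 and 8.92 FPKM in controls. The 10 hepatocyte markers listed for the tissue, among them Alb and Apoa1, summed to between 86980 and 100600 FPKM in knockouts and to between 100700 and 103200 FPKM in controls. Alb, the largest part of this sum, had 37676, 40386 and 50739 FPKM in knockouts and 50645 and 51017 FPKM in controls, with overlap, and Apoa1 overlapped too. All 10 were tested and 0 passed, 3 were higher and 7 lower in knockouts, and the median log2 fold change was -0.08. The 7 erythrocyte markers summed to 1337 FPKM in knockout 1, to 249.7 and 149 FPKM in the other knockouts, and to 141 and 153 FPKM in controls. Of 6 cholangiocyte markers, Spp1 had 66.4, 47.8 and 50.4 FPKM in knockouts and 25.9 and 38.4 FPKM in controls, Sox9 also did not overlap, and Krt19, Krt7, Epcam and Cftr overlapped between groups. The sums of sinusoidal endothelial, stellate, lymphocyte and pancreas markers had ranges that overlapped. In whole liver, fewer cells of a type and less RNA per cell cannot be told apart. The library names in the labels run in 2 sets of numbers, 18669 and 18668 (knockout 1 and control 1) and 18659 to 18663 (knockout 2, knockout 3 and control 2), and what the numbers stand for is not given.

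For all 4 genes of the polyunsaturated arm every knockout lay above both controls, as for 18.9% of all genes tested. Fads2 (ENSMUSG00000024665.8, chromosome 19, 10062765 to 10101746, minus strand, mm10), the desaturase that starts the pathway, had 248, 210.3 and 342 FPKM in the knockout livers and 156 and 184 FPKM in the control livers. All knockout values lay above both controls, the lowest by 26.2 FPKM. Its log2 fold change was 0.62 (SE 0.21, 95% interval 0.12 to 1.12, limma adjusted p = 0.700). Fads1 (ENSMUSG00000010663.5, chromosome 19, 10182888 to 10196877, plus strand), whose product makes arachidonic acid, had 134, 123 and 177 FPKM in knockouts and 93.8 and 89.5 FPKM in controls. The control livers were close together, and the lowest knockout lay 29.4 FPKM above the higher of them. Fads1 had the smallest adjusted p of the 9 genes, with a log2 difference of 0.64 between the group means (SE 0.16, 95% interval 0.25 to 1.02, limma adjusted p = 0.689).

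Elovl2 (ENSMUSG00000021364.16, chromosome 13, 41182381 to 41220405, minus strand), the elongase needed for docosahexaenoic acid, had 142, 121 and 196 FPKM in knockouts and 109 and 103 FPKM in controls. The groups did not overlap, and knockout 3 was the highest library, as it was for Fads1 and Fads2. Its log2 fold change was 0.49 (SE 0.20, 95% interval 0.017 to 0.97, limma adjusted p = 0.700), and it was 0.30 without knockout 3. Elovl5 (ENSMUSG00000032349.13, chromosome 9, 77917364 to 77984519, plus strand), which elongates the products of FADS2, had 65.9, 113 and 139 FPKM in knockouts and 49.8 and 63.6 FPKM in controls. Knockout 1 lay only 2.32 FPKM above control 2, while the other knockouts were well above both. Its log2 fold change was 0.84 (SE 0.30, 95% interval 0.10 to 1.57, limma adjusted p = 0.700).

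The promoters of 3 genes of the polyunsaturated arm are shown, those for which a window was matched. In each of these 3 genes every knockout lay above both controls, as for 18.9% of all genes tested. The same held for Elovl1, whose windows are not printed. RefSeq promoter windows (GRCm38.p6, of the mm10 assembly, 250 bases before to 50 after a start) were matched by symbol for 5 of the 9 members, in 7 windows. The windows are chr19:10101454-10101753 on the minus strand for Fads2, chr13:41220354-41220653 on the minus strand for Elovl2 and chr9:77917115-77917414 on the plus strand for Elovl5, each printed 5′ to 3′ along the gene. Capitals mark matches, on either strand, to the GC box GGGCGG, the inverted CCAAT box ATTGG, the E-box CACGTG, the nuclear receptor core motif AGGTCA or the sterol regulatory element TCACNCCAC.
Fads2: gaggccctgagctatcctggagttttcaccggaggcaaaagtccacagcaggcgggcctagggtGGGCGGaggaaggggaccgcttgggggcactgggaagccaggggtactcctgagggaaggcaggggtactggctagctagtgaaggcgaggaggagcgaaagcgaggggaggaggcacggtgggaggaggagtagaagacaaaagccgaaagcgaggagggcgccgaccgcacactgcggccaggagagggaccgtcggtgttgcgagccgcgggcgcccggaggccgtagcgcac
Elovl2: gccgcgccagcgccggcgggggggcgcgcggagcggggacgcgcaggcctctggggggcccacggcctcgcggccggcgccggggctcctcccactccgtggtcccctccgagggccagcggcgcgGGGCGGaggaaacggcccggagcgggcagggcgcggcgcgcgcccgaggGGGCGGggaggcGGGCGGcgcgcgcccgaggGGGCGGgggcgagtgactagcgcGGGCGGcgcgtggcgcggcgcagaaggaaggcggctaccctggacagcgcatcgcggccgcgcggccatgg
Elovl5: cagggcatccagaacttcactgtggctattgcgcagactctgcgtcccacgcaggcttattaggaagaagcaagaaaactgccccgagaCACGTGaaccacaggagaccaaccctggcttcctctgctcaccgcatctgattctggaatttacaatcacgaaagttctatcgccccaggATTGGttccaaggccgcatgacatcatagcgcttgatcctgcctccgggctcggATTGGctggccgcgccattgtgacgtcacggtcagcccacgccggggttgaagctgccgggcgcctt

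Positions are counted from the RefSeq start. The Fads2 window held 1 GC box, which begins at -186, and the Elovl2 window printed held 5, at -124, -75, -63, -44 and -21. The GENCODE start of Fads2, 10101746 on the minus strand, lies near the upstream end of its window. Most of that window, with its GC box, is therefore inside the gene as its coordinates are given above. The second Elovl2 window, chr13:41220113-41220412, held none of the motifs searched. GC boxes were found in 35.7% of the 32851 windows of this length. The Elovl5 window had an E-box at -161, a motif in 7.15% of windows, and inverted CCAAT boxes at -71 and -17, a motif in 37.4% of windows. The sterol regulatory element as spelled here was in 0 of the 7 windows of members and in 1.24% of all windows. The nuclear receptor motif, in 16.3% of all windows, was in 1 window each of Elovl6 and Elovl1. The Elovl1 window that starts at 118427843 also held 5 GC boxes and 1 inverted CCAAT box, and the one that starts at 118429451 held 2 GC boxes. No motif searched was shared by all 3 windows printed, no marked matches overlap, and a match describes letters in a window and is not a site of binding.

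The 4 genes of the polyunsaturated arm summed to 589.5, 568 and 854 FPKM in knockouts and to 408 and 441 FPKM in controls. Fads2 stood at 1.85, 1.71 and 1.94 times the FPKM of Fads1 in knockouts and at 1.66 and 2.06 times in controls, so this ratio overlapped between groups. Fads1 stood at 0.945, 1.02 and 0.903 times the FPKM of Elovl2 in knockouts and at 0.862 and 0.866 times in controls. The profiles of Fads1, Elovl2 and Fads2 over the 5 libraries, each centred on its own mean, were the closest among all pairs of members. Their root mean square distances were 0.089 for Fads1 with Elovl2, 0.11 for Fads1 with Fads2 and 0.12 for Fads2 with Elovl2 on the log2 scale, against 1.03 for Scd1 with Elovl6, the most distant pair. Among 10225 genes outside the 9, some were nearer still. Dact1 lay at 0.039 from Elovl2, Rdh11 at 0.046 from Fads2 and Selp at 0.078 from Fads1, so that such closeness is not particular to these members. These distances describe 5 libraries and were not tested.

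**Figure D2:**
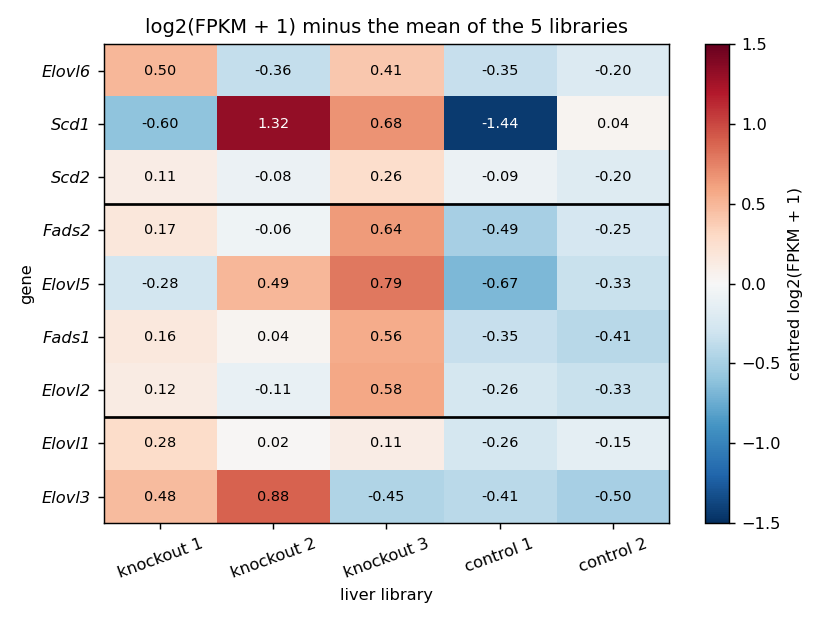
Each cell is log2(FPKM + 1) of a gene in 1 library minus that gene's mean over the 5 libraries, with rows grouped by arm. Fads2, Fads1 and Elovl2 share 1 pattern with knockout 3 highest, while Scd1 is highest in knockout 2 at 1.32 and Elovl3 is at -0.45 in knockout 3.

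Scd1 (ENSMUSG00000037071.3, chromosome 19, 44394455 to 44407879, minus strand), the main stearoyl-CoA desaturase of liver, was the most abundant member and the most variable. It had 272, 1037 and 661 FPKM in knockouts and 152 and 425 FPKM in controls. The groups overlapped, since knockout 1 lay below control 2, and libraries of 1 group differed by up to 3.81 times in knockouts and 2.79 times in controls. For Scd1 the fitted log2 fold change came to 1.16 (SE 0.63, 95% interval -0.35 to 2.68, limma adjusted p = 0.731). It moved with single libraries, being 1.70 without knockout 1, 0.74 without knockout 2, 0.43 without control 1 and 1.90 without control 2. In knockout 1 and control 1, whose library names follow each other, Scd1 was the lowest of its group, and within that set the knockout stood at 1.79 times the control. Within the other set the knockouts averaged 849 FPKM and the control had 425 FPKM, a ratio of 2.0. With the set of library names as a term of the fit, added after the data were seen, the log2 fold change was 0.91 (SE 0.20, limma adjusted p = 0.540).

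The summed Kupffer cell markers were lowest in knockout 1 and control 1 of their groups, as Scd1 was. The 8 markers, among them Clec4f, Vsig4 and Adgre1, summed to 210.0, 277 and 278 FPKM in knockouts and to 161 and 278 FPKM in controls. Not every marker had this order. Clec4f had 87.5 FPKM in knockout 1 and 72.2 FPKM in knockout 3, and Marco had 7.54 FPKM in control 1 and 7.34 FPKM in control 2. The same libraries were lowest for the summed stellate markers, with 106.5, 141 and 156 FPKM in knockouts and 127.5 and 155 FPKM in controls. Of 7 adipocyte markers, Adipoq, Plin1, Lep and Retn were listed at 0 in every library, and the 7 summed to 21.4, 34.4 and 29.3 FPKM in knockouts and to 18.8 and 36.6 FPKM in controls. The part of these cells in the Scd1 values was not tested.

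Scd2 (ENSMUSG00000025203.6, chromosome 19, 44293674 to 44306864, plus strand), a stearoyl-CoA desaturase best known from mouse brain, was close to the filter, with 1.26, 0.98 and 1.52 FPKM in knockouts and 0.97 and 0.83 FPKM in controls. The lowest knockout lay 0.01 FPKM above the higher control, the last decimal of the deposited values. Its log2 fold change was 0.24 (SE 0.16, 95% interval -0.15 to 0.63, limma adjusted p = 0.776), and it was 0.42 with a pseudocount of 0.1, 0.17 with quantile normalization and 0.16 without knockout 3. Scd1 stood at 216, 1060 and 435 times the FPKM of Scd2 in knockouts and at 157 and 512 times in controls. Scd2 was not highest in knockout 2, where Scd1 was highest. Of the other genes in this cluster of paralogs, Scd3 was listed at 0 in every library and Scd4 at 0 in all but knockout 2, where it had 0.02 FPKM.

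Elovl6 (ENSMUSG00000041220.10, chromosome 3, 129532355 to 129638495, plus strand), which elongates palmitate to stearate, had 25.5, 13.6 and 23.8 FPKM in knockouts and 13.7 and 15.3 FPKM in controls. Knockouts 1 and 3 were above both controls and knockout 2 was the lowest of the 5 libraries, so that the groups overlapped. Its log2 fold change was 0.46 (SE 0.26, 95% interval -0.16 to 1.08, limma adjusted p = 0.738), and it was 0.30 without knockout 1 and 0.73 without knockout 2. Elovl6 and Scd1, which act one after the other, had different orders over the libraries. Scd1 stood at 10.7, 76.1 and 27.8 times the FPKM of Elovl6 in knockouts and at 11.1 and 27.8 times in controls. Elovl6 overlaps the unnamed transcripts Gm43072, on the same strand over 1671 bases, and Gm35986, on the opposite strand over 34 bases.

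Elovl1 (ENSMUSG00000006390.15, chromosome 4, 118428093 to 118432953, plus strand), a broadly expressed elongase of very long saturated chains used in sphingolipids, had 40.9, 34.0 and 36.3 FPKM in knockouts and 27.8 and 30.1 FPKM in controls. The groups did not overlap, and the highest library was knockout 1. Elovl1 had a log2 fold change of 0.34 (95% interval 0.066 to 0.62, SE 0.12, limma adjusted p = 0.700). Elovl1 overlaps Cdc20 on the opposite strand over 53 bases, and no strand setting of the counting is known.

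Elovl3 (ENSMUSG00000038754.5, chromosome 19, 46131897 to 46135694, plus strand), an elongase known in mouse liver for male-biased and daily rhythmic expression, had 34.1, 45.5 and 17.5 FPKM in knockouts and 18.04 and 16.8 FPKM in controls. Knockouts 1 and 2 stood apart, whereas knockout 3 lay between the controls. For Elovl3 the log2 fold change was 0.76 (95% interval -0.10 to 1.62, SE 0.36, limma adjusted p = 0.718), and it was 0.47 without knockout 2 and 1.13 without knockout 3. Of 14 male-biased liver genes 13 were tested and 0 passed, 12 were higher and 1 lower in knockouts, and the median log2 fold change was 0.38. Moxd1, one of them, had 30.1, 42.6 and 8.03 FPKM in knockouts and 1.41 and 0.43 FPKM in controls. Among the knockouts it was lowest in knockout 3, as Elovl3 was. C6 and Ugt2b1, with log2 fold changes of 0.69 and 0.38, were instead lowest in knockout 2, where Elovl3 was highest. C6 had 203, 127 and 152 FPKM in knockouts, and Ugt2b1 had 219, 177 and 208 FPKM. In knockouts the median level of the male-biased list, relative to each gene's mean over the libraries, was 0.31, -0.035 and 0.20 on the log2 scale. In controls 1 and 2 it was 0.063 and -0.56, so that the groups overlapped. Every knockout lay above both controls for 4 of the 13 tested, Moxd1, C6 and Ugt2b1 among them, as for 18.9% of all genes tested. Of 19 clock genes 16 were tested and 0 passed, 10 were higher and 6 lower, and the median was 0.10, with Dbp and Bhlhe40 at 0.36 and -0.47. The part of sex-biased or rhythmic expression in the Elovl3 values was not tested.

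Over the 9 genes the order of the mean levels in FPKM, the same in both groups, was Scd1, Fads2, Elovl2, Fads1, Elovl5, Elovl1, Elovl3, Elovl6 and Scd2. Neighbours in this order kept it in all 5 libraries for Fads2 over Elovl2, Fads1 over Elovl5, Elovl5 over Elovl1 and Elovl6 over Scd2. The other neighbours changed places in 1 library each, Scd1 with Fads2 in control 1, Elovl2 with Fads1 and Elovl1 with Elovl3 in knockout 2, and Elovl3 with Elovl6 in knockout 3. The 9 genes summed to 963, 1699 and 1594 FPKM in knockouts and to 621 and 929 FPKM in controls. Scd1 alone made up 28.3%, 61.0% and 41.5% of that sum in knockouts and 24.5% and 45.8% in controls. Of the sum without Scd1, the polyunsaturated arm made up 85.3%, 85.8% and 91.5% in knockouts and 87.1% and 87.5% in controls, so that its share overlapped between groups.

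**Figure D3:**
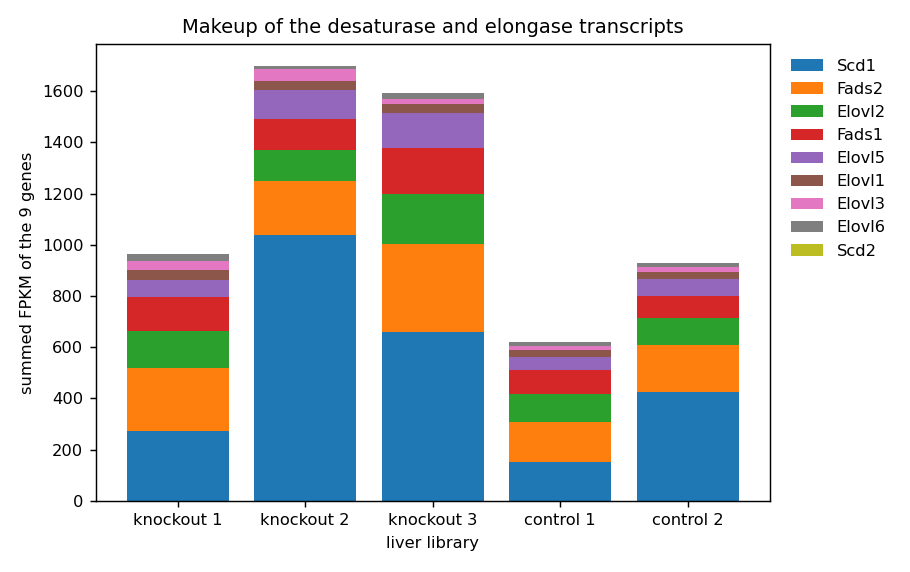
Stacked FPKM of the 9 genes in each liver library, knockouts 1 to 3 and then controls 1 and 2, with 1 colour per gene. The sums are 963, 1699 and 1594 FPKM in knockouts and 621 and 929 FPKM in controls, and Scd1 ranges from 272 to 1037 FPKM in knockouts and from 152 to 425 FPKM in controls.

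Within each of the 2 sets of library names, 8 of the 9 genes had every knockout above the control, a pattern that 29.4% of all genes tested showed. Elovl6 was the exception, since knockout 2 lay below control 2. Knockout 3 was the highest library for 5 members and the lowest for none, and each control was the lowest for 4 members. With the set of library names as a term, the log2 fold changes of the 9 genes were between 0.25 for Scd2 and 0.91 for Scd1, with limma adjusted p between 0.540 and 0.715.

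The 3 relatives of the members that passed the filter had higher means in knockouts as well. Fads3, the third gene of the Fads cluster, had 3.45, 1.98 and 3.32 FPKM in knockouts and 1.11 and 1.82 FPKM in controls, a log2 fold change of 0.66 (SE 0.23, limma adjusted p = 0.700). Fads6, named as a desaturase by its sequence, had 33.0, 30.8 and 30.9 FPKM in knockouts and 25.1 and 26.8 FPKM in controls, a log2 fold change of 0.28. Degs1, the dihydroceramide desaturase, had 36.2, 36.8 and 41.0 FPKM in knockouts and 33.5 and 35.8 FPKM in controls. For each of these 3 genes every knockout lay above both controls, as for 18.9% of all genes tested, and none passed over all genes. Elovl4, Elovl7 and Degs2 were below the filter, with at most 0.49 FPKM in any library.

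Genes beside the clusters were chosen after the values were seen. Within 100000 bases of Fads1, Fads2 and Fads3 the other 5 tested genes, Fth1, Rab3il1, Fen1, Tmem258 and Myrf, had log2 fold changes between -0.17 for Tmem258 and 0.35 for Rab3il1. Rab3il1, next to Fads3, had 2.72, 2.16 and 2.91 FPKM in knockouts and 1.57 and 2.07 FPKM in controls, and the other 4 had groups that overlapped. Beside the Scd genes, Chuk, Cwf19l1 and Bloc1s2 had log2 fold changes of 0.10, 0.20 and -0.23. Bloc1s2 had 14.5, 12.9 and 12.5 FPKM in knockouts and 15.9 and 15.6 FPKM in controls, without overlap, and Chuk and Cwf19l1 overlapped. None of these neighbours passed over all genes.

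**Figure D4:**
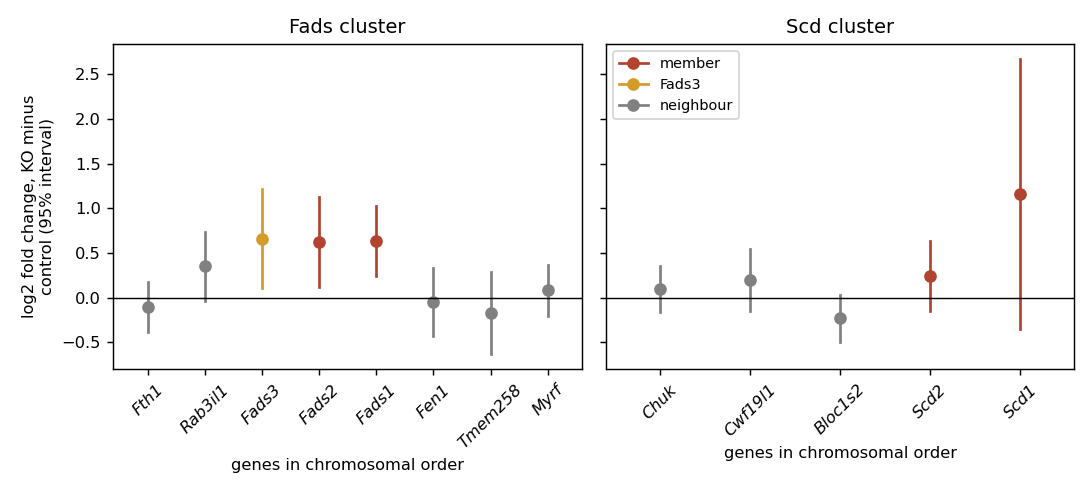
Log2 fold changes, knockout minus control, with 95% intervals for the tested genes within 100000 bases of the Fads genes and of the Scd genes, in chromosomal order. Fads3, Fads2 and Fads1 lie at 0.66, 0.62 and 0.64 with intervals above 0. The intervals of all other genes shown include 0, among them Rab3il1 (0.35, -0.034 to 0.74), Scd1 and Scd2.

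Elongation is a cycle of several steps, of which the ELOVL enzymes carry out only the first. Of the 6 genes listed for the other steps 5 were tested, 0 passed in either direction, and the median log2 fold change was 0.11 against 0.06 over all genes. Hsd17b12, the ketoacyl reductase, had 77.9, 67.3 and 75.2 FPKM in knockouts and 66.2 and 65.5 FPKM in controls, without overlap. Tecr, the enoyl reductase, and Hacd2, a dehydratase, had groups that overlapped and log2 fold changes of 0.11 and 0.12. Stearoyl-CoA desaturases take electrons from cytochrome b5, and of 6 genes of that chain 5 were tested and 0 passed, with a median log2 fold change of 0.09. Cyb5r3, a cytochrome b5 reductase, had 286, 280.0 and 308 FPKM in knockouts and 242 and 223 FPKM in controls, a log2 fold change of 0.32. Cyb5a, a cytochrome b5, lay the other way, with 1201, 1042 and 1035 FPKM in knockouts and 1273 and 1296 FPKM in controls, a log2 fold change of -0.24 (limma adjusted p = 0.708). Cyb5r4 had a log2 fold change of 0.20, and for all 3 the groups did not overlap.

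**Figure D5:**
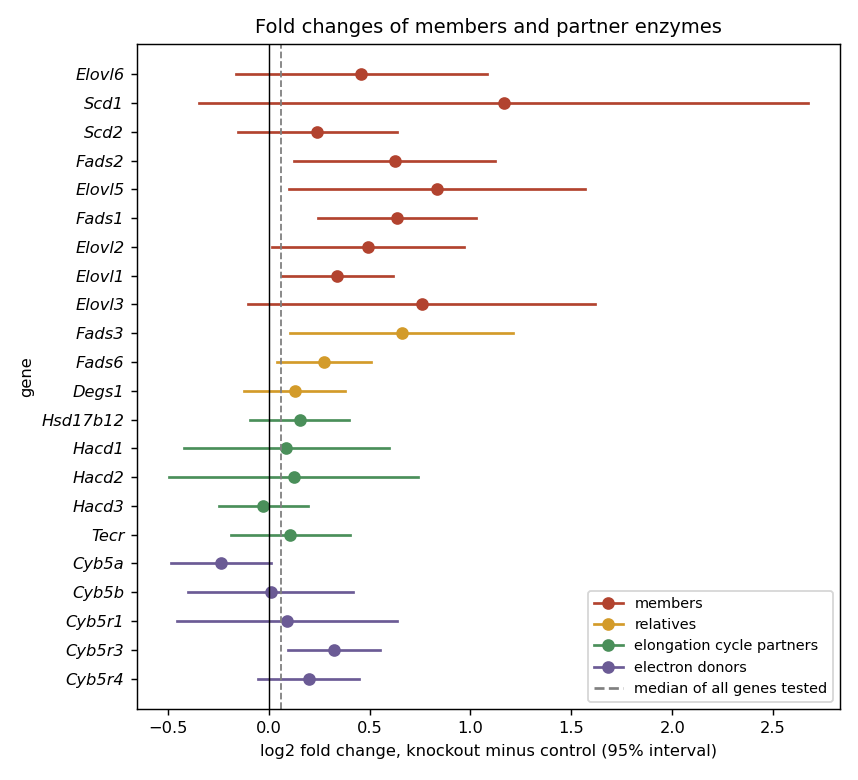
Log2 fold changes, knockout minus control, with 95% intervals for the 9 members and related genes, with the median of all genes (0.06) dashed. All 9 members lie to the right of that median, from 0.24 for Scd2 to 1.16 for Scd1, while Cyb5a lies at -0.24.

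Genes known to control the members were measured too. All 21 listed regulators were tested and 0 passed, 17 were higher and 4 lower in knockouts, and the median log2 fold change was 0.18. Srebf2, the gene of the SREBP that drives cholesterol synthesis, had 12.1, 11.4 and 12.5 FPKM in knockouts and 8.98 and 8.72 FPKM in controls (log2 fold change 0.40, SE 0.10, limma adjusted p = 0.689). Scap, the SREBP escort protein, had 29.0, 32.3 and 33.1 FPKM in knockouts and 25.5 and 22.8 FPKM in controls, and Ppargc1b, a coactivator of SREBP-1c, had a log2 fold change of 0.40. Srebf1, which encodes SREBP-1c and is named after its values were seen, had a lower mean in knockouts. It had 108, 103 and 139 FPKM in knockouts and 126 and 229 FPKM in controls, with groups that overlapped (log2 fold change -0.55, SE 0.26, limma adjusted p = 0.718).

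Other targets of SREBP-1c, LXR and ChREBP had a median log2 fold change of -0.15, with 13 of 14 listed genes tested, 0 passed, 5 higher and 8 lower in knockouts. Acacb, the mitochondrial acetyl-CoA carboxylase, had 8.66, 12.0 and 16.5 FPKM in knockouts and 6.38 and 6.29 FPKM in controls. Pklr, the liver pyruvate kinase and a ChREBP target, had 233, 237 and 277 FPKM in knockouts and 326 and 379 FPKM in controls. For both the groups did not overlap, in opposite directions, and Abcg5, a sterol exporter driven by LXR, had a log2 fold change of -0.54 with overlap. All 19 listed cholesterol synthesis and uptake genes driven by SREBP2 were tested and had higher means in knockouts, as did 64.2% of all genes tested. Of these 19, 0 passed, and the median log2 fold change was 0.55, with Idi1, Dhcr7 and Nsdhl at 1.64, 0.70 and 1.03. Every knockout lay above both controls for 10 of the 19, as for 18.9% of all genes tested. The median level of that list, relative to each gene's mean over the libraries, was 0.39, -0.11 and 0.58 in knockouts and -0.55 and -0.26 in controls on the log2 scale. For the 9 members the same medians were 0.16, 0.019 and 0.56 in knockouts and -0.35 and -0.25 in controls. Both sets were thus highest in knockout 3 and lowest in control 1. This is not particular to them, since the Kupffer cell markers were at 0.29 and -0.49 in these libraries, again their highest and lowest. Of 14 targets of PPARα in fatty acid metabolism 12 were tested, 0 passed, 4 were higher and 8 lower, and the median log2 fold change was -0.33, with Cyp4a14, Acadm and Acaa1b at -4.05, -0.43 and -0.54.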

How the data were processed

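RNA was sequenced from 3 knockout and 2 control liver libraries. The authors deposited FPKM per gene, given to 2 decimals, in 2 tables that held identical values in all 33589 rows. The submitters' processing notes name HISAT2, StringTie, DESeq2 and the mm10 build, and their versions, their order and the strand setting are not given in the sources used here. Without counts the depth is unknown and no count test or counting interval was possible. From the FPKM, log2(FPKM + 1) was tested with limma 3.58.1 in R 4.3.3 (trended empirical Bayes, genotype only, genes with a mean of at least 1 FPKM, Benjamini-Hochberg threshold 0.05). Coordinates came from GENCODE M21 and promoters from RefSeq. Errors are SD between libraries and SE from limma. The 9 genes, the 11 pathway lists and the 9 marker lists were chosen with earlier results of these data known. The lists held 215 entries, of which 2 were matched by another symbol. Of each list the genes with the 3 smallest unadjusted p are named, apart from those said to be chosen after their values were seen, and all family relatives are named. Of the genes this rule names, 1 is not reported here. The alternatives were other pseudocounts, filters and scalings, library weights, a replicate block, leaving out each library and, added after the data were seen, the set of library names as a term.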

Additional observations from a re-analysis of the deposited data

How the results depend on the processing

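Over 16 alternatives, all 143 log2 fold changes of single members kept their direction and stayed on the same side of the adjusted threshold. With a filter of 5 FPKM, Scd2 could not be tested. The median log2 fold change of the members was between 0.43 and 0.73, and that of all genes was 0.003 with median-of-ratios scaling and -0.002 with quantile normalization, where the members' medians were 0.56 and 0.64. Of all genes, 5 passed with the replicate number as a block (Moxd1, Mup11, Mup16, Mup9 and LOC108167922) and between 0 and 1 passed when 1 library was left out, the 1 being Hamp without control 1; none of these is a member. In the block fit the smallest adjusted p of a member was 0.148, for Scd1. Knockout 3 has a number of its own there and adds nothing to the fold changes. Deviations from the group means correlated across genes at 0.23 between knockout 1 and control 1 and at 0.20 between knockout 2 and control 2, but with 2 controls the deviations mirror each other, and the numbers are not taken to pair the libraries. Leaving out a control leaves 1, which is assumed to vary like the other libraries. With 3 and 2 libraries only 10 splits exist, so no permutation test of a single gene can reach 0.05.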

Other observations

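Genes that supply or use the acyl chains were measured beside the desaturases and elongases, and none passed the limma test over all genes. Of 13 genes of acyl-CoA activation and binding 10 were tested, with a median log2 fold change of 0.12, and Acsl1, Dbi and Acot1 were at 0.35, 0.25 and -0.45. Dbi, the acyl-CoA binding protein, had 1387, 1327 and 1382 FPKM in knockouts and 1139 and 1162 FPKM in controls, without overlap. Of 13 genes that place polyunsaturated chains in phospholipids, release, carry or shorten them 12 were tested, 6 were higher and 6 lower in knockouts, and the median was -0.01. Lpgat1, an acyltransferase of lysophospholipids, had 29.7, 42.5 and 27.4 FPKM in knockouts and 20.6 and 22.8 FPKM in controls. Agpat2 lay the other way at -0.20, without overlap. Mfsd2a, a carrier of lysophosphatidylcholine with docosahexaenoic acid, had 12.6, 19.6 and 48.1 FPKM in knockouts and 30.9 and 79.1 FPKM in controls, with overlap.

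For the 3 members with the widest range over the 5 libraries, the genes with the nearest centred profile among 10225 were listed as a description. Nearest to Elovl5 were Ugt1a5, Foxa2 and Ablim1, at root mean square distances of 0.057, 0.12 and 0.14 on the log2 scale. Foxa2 had 14.1, 22.1 and 25.1 FPKM in knockouts and 11.2 and 12.5 FPKM in controls. Nearest to Elovl3 were Traf3ip2, Cyp8b1 and Arhgap10, at 0.20, 0.21 and 0.24, and Cyp8b1, a sterol hydroxylase of bile acid synthesis, had 132, 188 and 81.2 FPKM in knockouts and 86.5 and 53.3 FPKM in controls. No gene was as near to Scd1, for which Apoa4, Iglv1 and Slc11a1 came first at 0.46, 0.49 and 0.50.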
